A study of Mus musculus with 6 samples.

Results

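Notch1, Notch2 and Notch4 encode Notch receptors, Jag1 a Notch ligand, Rbpj the DNA-binding protein through which the receptors act, Hes1 and Nrarp transcripts that the pathway induces, and Dtx2, Dtx3 and Dtx4 Deltex E3 ubiquitin ligases. These 10 genes were found by symbol among the 36706 entries of each table, and all 10 were listed. They were selected on their counts in IFN-γ-treated against untreated cells, a comparison whose outcome was already known. Their values in that comparison are therefore given as a description. How many of them passed the threshold used for all genes is given once, beside the share of all genes, and nothing is read from it. The cells were bone marrow-derived macrophages of wild-type (WT) genotype, which are macrophages grown from marrow in M-CSF. One group of 3 libraries had received no treatment and the other group of 3 had received IFN-γ, both labelled 3 h. The study was made to follow how IFN-γ induces ACOD1, an enzyme of itaconate synthesis. The sources used here give neither the dose of IFN-γ nor the sex, age or strain of the mice. Nothing says that the replicates were separate mice or cultures, so SDs, standard errors and p-values measure the spread between these libraries, which may be technical.

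Notch signalling passes from cell to cell. A ligand of the Jagged or Delta-like families on one cell binds a Notch receptor on its neighbour, the receptor is cut by an ADAM protease and then by γ-secretase, and the freed intracellular domain enters the nucleus, where it joins RBPJ and a Mastermind protein to switch on genes such as Hes1, Hey1 and Nrarp. Without that domain RBPJ sits with corepressors. Deltex proteins bind or ubiquitinate Notch and other targets, and DTX4 is also known as a ligase that acts on TBK1, a kinase of antiviral signalling. In macrophages the pathway is known for its exchange with Toll-like receptor and interferon signals.

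Total counts ran from 28133342 to 34233607 per library. A floor of 3 counts stood for 0.089 to 0.1015 CPM, the count scaled to library size after TMM normalisation, a trimmed mean that makes libraries comparable. Irf1, an interferon response gene used to check the labels, had 33.1 ± 0.605 CPM without treatment against 941 ± 14.2 CPM after IFN-γ (SD, n = 3). The macrophage markers Adgre1, Csf1r, Cd68, Itgam, Lyz2, Mertk and Fcgr1 summed to 19100 to 20600 CPM untreated and 20300 to 21500 CPM with IFN-γ. Lyz2 carried most of the sum, with means of 15500 and 15200 CPM. Of the 7 genes, 3 were called higher and 0 lower, and Fcgr1 went from a mean of 393 to 931 CPM. The T cell genes Cd3d, Cd3e and Cd3g were at or under 3 counts in every library. Lck, the remaining gene of the T cell list, had 8, 8 and 10 counts untreated and 44, 36 and 32 with IFN-γ, and was called higher. Lck passed the filter on low counts (at least 10) only through the IFN-γ libraries, where it was high, so nothing is read from its call. The untreated libraries differed more among themselves than the IFN-γ libraries. Chi-square over its degrees of freedom, a measure of how far 2 libraries differ beyond counting noise, was 81.12 for untreated replicates 1 and 2, 52.72 for 1 and 3 and 27.5 for 2 and 3, against 2.05 to 17.14 for pairs of IFN-γ libraries. Untreated replicate 2 also had the steepest trend on exon length: the deviation of its genes from their mean over the 6 libraries changed by -0.0925 log2 units per doubling of exon length, against -0.0246 to 0.0669 in the other 5.

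Notch2 was the receptor with the highest level per base of transcript, and both Notch1 and Notch2 were higher with IFN-γ while Notch4 was lower. In the 3 untreated libraries Notch2 was at 48.0, 40.6 and 46.3 CPM, and in the 3 IFN-γ libraries at 99.35, 83.0 and 81.7 CPM. Every IFN-γ library lay above every untreated one. The fitted log2 fold change of Notch2 was 0.97 ± 0.10 (SE), or 1.96-fold.

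Notch1 was at 23.1, 12.0 and 20.8 CPM in untreated replicates 1, 2 and 3 and at 42.4, 34.0 and 30.8 CPM with IFN-γ. The groups did not overlap, and untreated replicate 2 was the lowest of the 6. Its log2 fold change was 0.94 ± 0.23, or 1.92-fold, close to that of Notch2 but with a larger error. The spread of Notch1 within groups, an SD of 0.396 on the log2 scale, was at or above that of 93.7% of the 12968 genes tested. In untreated replicate 2, the log2 difference of Notch1 from the mean of the other 2 untreated libraries was -0.869 among the lowest 2.3% of genes. Without that library the log2 fold change was 0.71 ± 0.13, and without untreated replicate 1 it was 1.12 ± 0.23. With each library's trend on exon length removed and all libraries kept it was 0.93 ± 0.16.

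Notch4, a receptor known mainly from blood vessel endothelium, had 153, 120 and 151 counts without treatment and 66, 72 and 61 after IFN-γ. Again the groups did not overlap, this time with every IFN-γ library lower. On the CPM scale it went from 4.54 ± 0.516 to 2.11 ± 0.202 (SD, n = 3), a log2 fold change of -1.10 ± 0.13, or 2.15-fold lower. The endothelial markers Cdh5, Kdr, Emcn and Tek summed to 11 to 15.2 CPM untreated and 15.2 to 19.8 CPM with IFN-γ. Only Cdh5 and Kdr were tested and neither was called. Emcn and Tek were at or under 3 counts in every library, and Kdr carried most of the sum, with 433, 311 and 452 counts untreated and 616, 447 and 450 with IFN-γ. The part of endothelial cells in the values of Notch4 was not tested. In these bulk samples, fewer cells of a type and less RNA per cell cannot be told apart. Notch3, the other receptor gene, had 0 or 1 count per library.

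**Figure D1:**
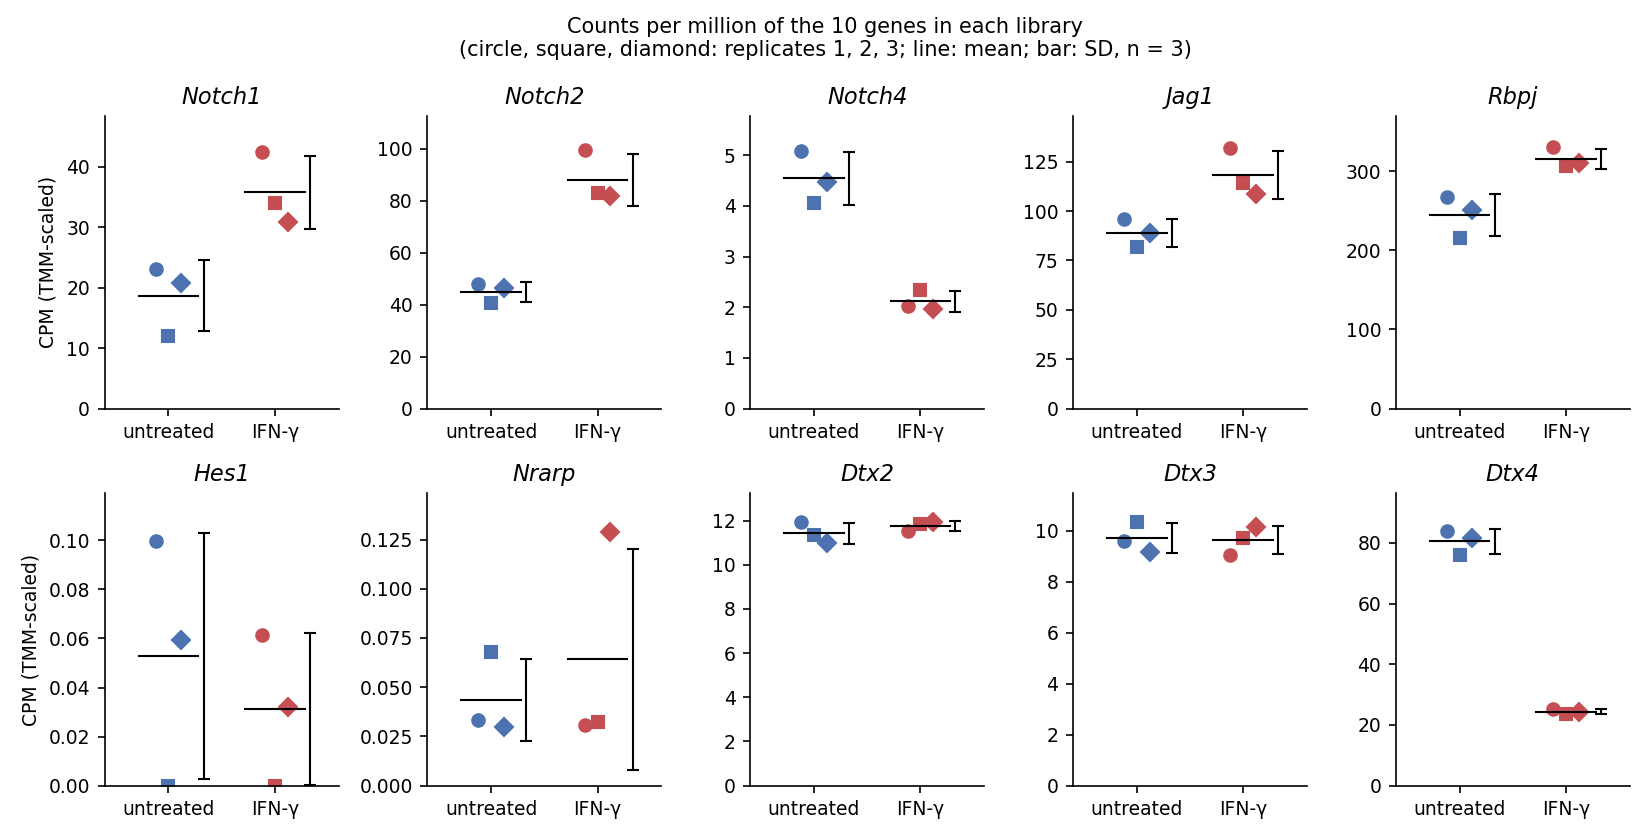
CPM (vertical axes, each starting at 0) of the 10 genes in the 3 untreated (blue) and 3 IFN-γ (red) libraries, with symbols for replicates 1 to 3, a line at the mean and a bar for the SD. Notch1, Notch2, Jag1 and Rbpj lay higher in all IFN-γ libraries, Notch4 and Dtx4 lower, and Dtx2 and Dtx3 overlapped, while Hes1 and Nrarp reached at most 0.129 CPM.

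Levels of different genes are compared in TPM, the deposited measure that corrects for exon length. Notch2 made up 62.7 ± 4.56% of the summed TPM of the receptor genes untreated and 67.4 ± 1.21% with IFN-γ, and these shares overlapped between groups (59.2 to 67.8% against 66.5 to 68.8%). The share of Notch1 was 28 ± 5.12% and 30.2 ± 1.36%. Notch4 gave 9.3 ± 0.651% and 2.41 ± 0.389%, so the receptor pool of the IFN-γ libraries held almost only Notch1 and Notch2. These shares are ratios within a library. TPM is not scaled by TMM, so the difference of a gene between groups is taken from CPM.

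The bases in front of the transcription start are shown for these receptors and for Rbpj, since Notch1 and Notch2 were higher together and Notch4 lower, and Rbpj is the pathway's own DNA-binding factor. RefSeq windows (build GRCm38.p6) were matched for 7 of the 10 genes, and the 250 bases upstream of the start were read 5′ to 3′ on the gene's strand. Hes1, Dtx3 and Dtx4 had no entry. Capitals mark TGGGAA, the core of sites bound by RBPJ, or its reverse complement TTCCCA.
Notch1 (chr2:26503823-26504072, minus strand): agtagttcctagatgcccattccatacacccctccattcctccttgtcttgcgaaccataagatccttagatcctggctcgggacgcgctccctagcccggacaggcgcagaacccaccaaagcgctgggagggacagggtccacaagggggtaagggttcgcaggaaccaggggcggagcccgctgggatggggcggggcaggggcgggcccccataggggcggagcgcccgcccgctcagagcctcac
Notch2 (chr3:98013288-98013537, plus strand): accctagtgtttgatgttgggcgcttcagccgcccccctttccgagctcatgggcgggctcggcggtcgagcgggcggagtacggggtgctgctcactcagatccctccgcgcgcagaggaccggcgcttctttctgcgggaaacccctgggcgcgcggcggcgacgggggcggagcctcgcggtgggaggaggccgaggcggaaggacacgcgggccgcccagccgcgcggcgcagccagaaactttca
Notch4 (chr17:34564045-34564294, plus strand): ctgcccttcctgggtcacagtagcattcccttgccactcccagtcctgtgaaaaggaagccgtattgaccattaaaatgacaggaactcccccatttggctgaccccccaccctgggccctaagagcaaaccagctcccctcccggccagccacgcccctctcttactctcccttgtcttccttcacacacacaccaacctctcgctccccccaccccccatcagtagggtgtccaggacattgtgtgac
Rbpj (chr5:53590096-53590345, plus strand): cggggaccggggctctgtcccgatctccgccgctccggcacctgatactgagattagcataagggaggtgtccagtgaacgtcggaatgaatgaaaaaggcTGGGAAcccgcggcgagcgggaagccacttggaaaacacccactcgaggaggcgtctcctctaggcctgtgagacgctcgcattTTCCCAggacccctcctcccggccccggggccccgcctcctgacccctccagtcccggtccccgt
These sequences held 66% G and C for Notch1, 72% for Notch2, 58.4% for Notch4 and 65.2% for Rbpj, where the median of all 32851 windows was 52.4%. The Rbpj window held TGGGAA on its own strand at base -149 and TTCCCA at base -65 from the start. A window of a further Rbpj start, which overlaps the first, held the latter match again. None of the windows of Notch1, Notch2, Notch4, Jag1 and Nrarp held TGGGAA on either strand, which 21.6% of all windows did. TTCNNNGAA, the letters of a gamma-activated site, stood in 7.0% of all windows and, among the 7 genes, in Dtx2 alone, at base -23, where it overlaps a TTCCCA match. The core of the interferon-stimulated response element stood in 3.0% of all windows and in none of the 7 genes. Both strands were searched for each motif. A match describes letters, and the lack of one says only that these letters are not in this window.

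Jag1, the ligand gene, was the main Notch ligand transcript of these macrophages in both groups. It stood at 95.7, 81.7 and 89.1 CPM untreated and 132.0, 114.3 and 108.5 CPM with IFN-γ, with no overlap. The log2 fold change was 0.41 ± 0.09, or 1.33-fold, smaller than that of Notch1 or Notch2. In TPM, which TMM does not scale, the groups of Jag1 overlapped (13.9 to 18.5 untreated and 18.1 to 23.5 with IFN-γ). Of the summed TPM of Jag1, Jag2, Dll1, Dll3 and Dll4, Jag1 gave 96.9 ± 0.559% untreated and 97.8 ± 0.218% with IFN-γ. Dll4 and Dll3 were under the floor, with 0 to 2 and 0 or 1 counts per library. Dll1, a Delta-like ligand gene, had 5, 2 and 3 counts untreated and 12, 11 and 12 counts with IFN-γ, and was called higher (log2 fold change 1.76 ± 0.39, adjusted p = 0.00856 by edgeR's quasi-likelihood test with Benjamini-Hochberg adjustment). Dll1 reached the 10 counts of the low-count filter only in the IFN-γ libraries, where it was high, so nothing is read from its call. Jag2 had 24, 39 and 33 counts untreated and 22, 21 and 16 with IFN-γ, a log2 fold change of -0.71 ± 0.25 that missed the threshold of 0.05 (adjusted p = 0.0587 in the same test). Jag2 was called lower in 5 of 16 alternatives, among them total counts alone (adjusted p = 0.0190), upper quartile scaling (0.0257) and the fit without untreated replicate 1 (0.0315). It was not called in the other 11, among them DESeq2 (its adjusted p = 0.128) and the edgeR fit without untreated replicate 2 (0.138). The dendritic cell markers Flt3, Zbtb46, Xcr1 and Clec9a summed to 1.36 to 2.03 CPM untreated and 4.92 to 5.76 CPM with IFN-γ, and 2 of the 4, Xcr1 and Clec9a, were called higher. Clec9a had 10, 10 and 6 counts untreated and 31, 30 and 26 with IFN-γ. It passed the low-count filter only through the IFN-γ libraries, where it was high, so nothing is read from its call. The part of dendritic cells in the values of these low ligands was not tested.

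Rbpj was abundant in both groups and differed least among the 6 genes whose groups were apart in CPM. It was at 268, 216 and 251 CPM untreated and 330, 306.0 and 310.0 CPM with IFN-γ, where the lowest untreated library was replicate 2. The log2 fold change was 0.36 ± 0.08, or 1.29-fold. In TPM the groups of Rbpj overlapped (14.9 to 21.0 untreated and 20.9 to 23.8 with IFN-γ). Rbpj has processed copies elsewhere in the genome: 10.3% of the 50-base stretches of its GENCODE M21 transcripts also occurred in other genes, most often in Rbpj-ps3. Its count as a single gene is therefore uncertain, by an amount that was not measured, since this is a share of stretches and not of reads. For Notch2 the share was 3.8%, and for the other 8 genes 0.

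Hes1 and Nrarp, the transcripts that Notch is best known to induce, were at or near the floor with and without IFN-γ. Hes1, a transcriptional repressor gene, had 3, 0 and 2 counts untreated and 2, 0 and 1 with IFN-γ. Nrarp, an ankyrin repeat protein gene that feeds back on Notch, had 1, 2 and 1 counts untreated and 1, 1 and 4 with IFN-γ. Neither gene passed the filter on low counts, and no fold is given. A difference between the groups was not detectable at this depth. Among the relatives of Hes1, Hes5 and Heyl had 0 counts in all 6 libraries, Hey2 had 0 or 1 and Hes7 0 to 4. Not every relative was near the floor. Hes6 had between 433 and 560 counts per library and was not called (log2 fold change -0.21 ± 0.11). Hey1, with 2 to 14 counts per library, is described below among the target genes.

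The Deltex genes went different ways. Dtx4 had the largest difference of the 8 genes fitted, with 83.9, 76.0 and 81.6 CPM untreated against 25.1, 23.6 and 24.3 CPM with IFN-γ, and the groups were far apart. Its log2 fold change was -1.73 ± 0.06, or 3.31-fold lower, and it ranked as number 47 of 12968 genes from the lowest log2 fold change. Dtx2 was at 11.9, 11.3 and 11 CPM untreated and 11.5, 11.85 and 11.9 CPM with IFN-γ. Dtx3, which lacks the WWE domains by which its relatives bind Notch, was at 9.61, 10.35 and 9.16 CPM untreated and 9.06, 9.70 and 10.1 CPM with IFN-γ. The groups overlapped for both, with log2 fold changes of 0.04 ± 0.07 for Dtx2 and -0.01 ± 0.08 for Dtx3. Under upper quartile scaling and total counts alone the value of Dtx2 was -0.10 and -0.13, and that of Dtx3 ran from -0.18 to 0.04 over the alternatives.

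Dtx3l, a Deltex relative that works with the ADP-ribosyltransferase PARP9 in interferon responses, is no member of the group of 10, but it changed the make-up of the family. It rose by 2.43 ± 0.14 (log2), from 35.8 ± 7.18 to 193 ± 14.2 CPM (edgeR adjusted p = 4.7e-06). Its exons overlap those of Parp9 on the other strand over 6.45% of their bases, with mean counts of 3600.8 and 4032.7. Of the summed TPM of the Deltex genes, Dtx4 gave 52.0 ± 1.3% untreated and 8.79 ± 0.323% with IFN-γ, and Dtx3l 25.9 ± 3.49% and 78.7 ± 1.4%. Dtx1 had 0 or 1 count per library.

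**Figure D2:**
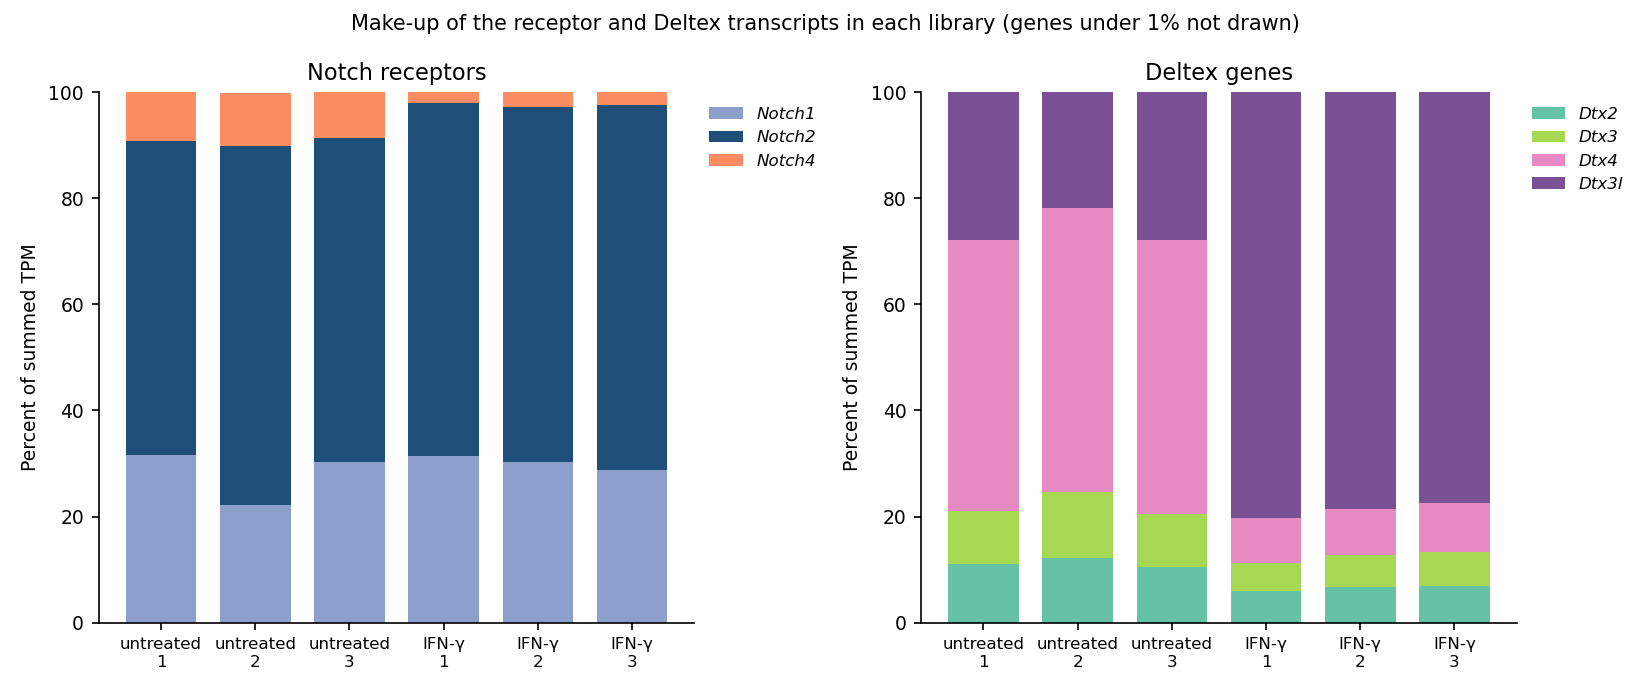
Percent of the summed TPM (vertical axis, 0 to 100) that each receptor gene (left) and each Deltex gene (right) gave in each of the 6 libraries, with genes under 1% not drawn. Notch2 was the largest receptor part in every library, and the largest Deltex part was Dtx4 in the untreated and Dtx3l in the IFN-γ libraries.

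Per base of the tables' exon models, Dtx4 had the highest level of the 10 genes in untreated macrophages, at 30.0 ± 3.61 TPM, above Rbpj at 18.6 ± 3.23 and Jag1 at 16.6 ± 2.39, whose ranges overlapped. Notch2 followed at 9.37 ± 1.44 TPM, then Dtx2 at 6.49 ± 0.58 and Dtx3 at 6.16 ± 0.174, which overlapped, and Notch1 at 4.34 ± 1.6. Notch4 stood at 1.39 ± 0.242 TPM, Hes1 at 0.0695 ± 0.0656 and Nrarp at 0.0358 ± 0.0143, which overlapped. With IFN-γ the order was Rbpj, Jag1 and Notch2, at 21.9 ± 1.64, 20.3 ± 2.83 and 16.8 ± 2.49 TPM and each overlapping the next. Dtx4 came after them at 8.34 ± 0.535 TPM and overlapped Notch1 at 7.58 ± 1.54, followed by Dtx2, Dtx3 and Notch4 with no overlap between neighbours. This order rests on the lengths used. The tables give Rbpj 28891 exon bases and Jag1 11717, while their longest GENCODE M21 transcripts have 5485 and 5612. Divided by the longest transcript instead, untreated Rbpj was at 44.6 ± 4.83 CPM per kilobase, Jag1 at 15.8 ± 1.25, Dtx4 at 15.4 ± 0.774, Dtx3 at 4.87 ± 0.302 and Notch2 at 4.29 ± 0.368, so that Rbpj and not Dtx4 came first and Dtx3 stood above Notch2. With IFN-γ the same measure gave Dtx3 4.83 ± 0.268, Dtx4 4.66 ± 0.15 and Notch1 3.77 ± 0.631, so the order of these genes also depended on the length used.

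In the tables, whose coordinates match GRCm38 for none of the 10 genes and name no build, Notch1 lies on chromosome 2 from 26347914 to 26393834 (minus strand), Notch2 on chromosome 3 from 97920854 to 98057683 (plus), and Notch4 on chromosome 17 from 34783257 to 34807517 (plus). Jag1 lies on chromosome 2 from 136923371 to 136958440 (minus), Rbpj on chromosome 5 from 53713121 to 53814787 (plus), Hes1 on chromosome 16 from 29884175 to 29886614 (plus) and Nrarp, a gene of 1 exon, on chromosome 2 from 25070770 to 25073351 (plus). Dtx2 lies on chromosome 5 from 136023654 to 136061735 (plus), Dtx3 on chromosome 10 from 127026242 to 127032367 (minus) and Dtx4 on chromosome 19 from 12443697 to 12479543 (minus). Exons of Notch1 overlap 0610009E02Rik on the other strand over 11.27% of their bases, with mean counts of 854.8 for Notch1 and 6.8 for that gene. No source used here says whether the counting used strand.

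Of the 10 genes, 8 passed the filter on low counts and entered the fit over 12968 genes. At an adjusted p under 0.05, 4 of the 8 were higher with IFN-γ (19.6% of all genes tested were) and 2 were lower (16.8% of all). The same 4 and 2 had groups that did not overlap in CPM, as did 25.9% of all genes on the higher and 24.2% on the lower side. Since the genes were chosen with this comparison known, nothing is read from these counts. The fitted values moved with the processing. Without IFN-γ replicate 1 the log2 fold change was 0.78 ± 0.25 for Notch1 and 0.32 ± 0.10 for Rbpj, and neither then passed the threshold. With libraries scaled by total counts alone it was 0.24 ± 0.10 for Jag1 and 0.19 ± 0.10 for Rbpj, again without passing, and with upper quartile scaling 0.22 ± 0.08 for Rbpj. A filter of 5 CPM in 3 libraries removed Notch4.

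**Figure D3:**
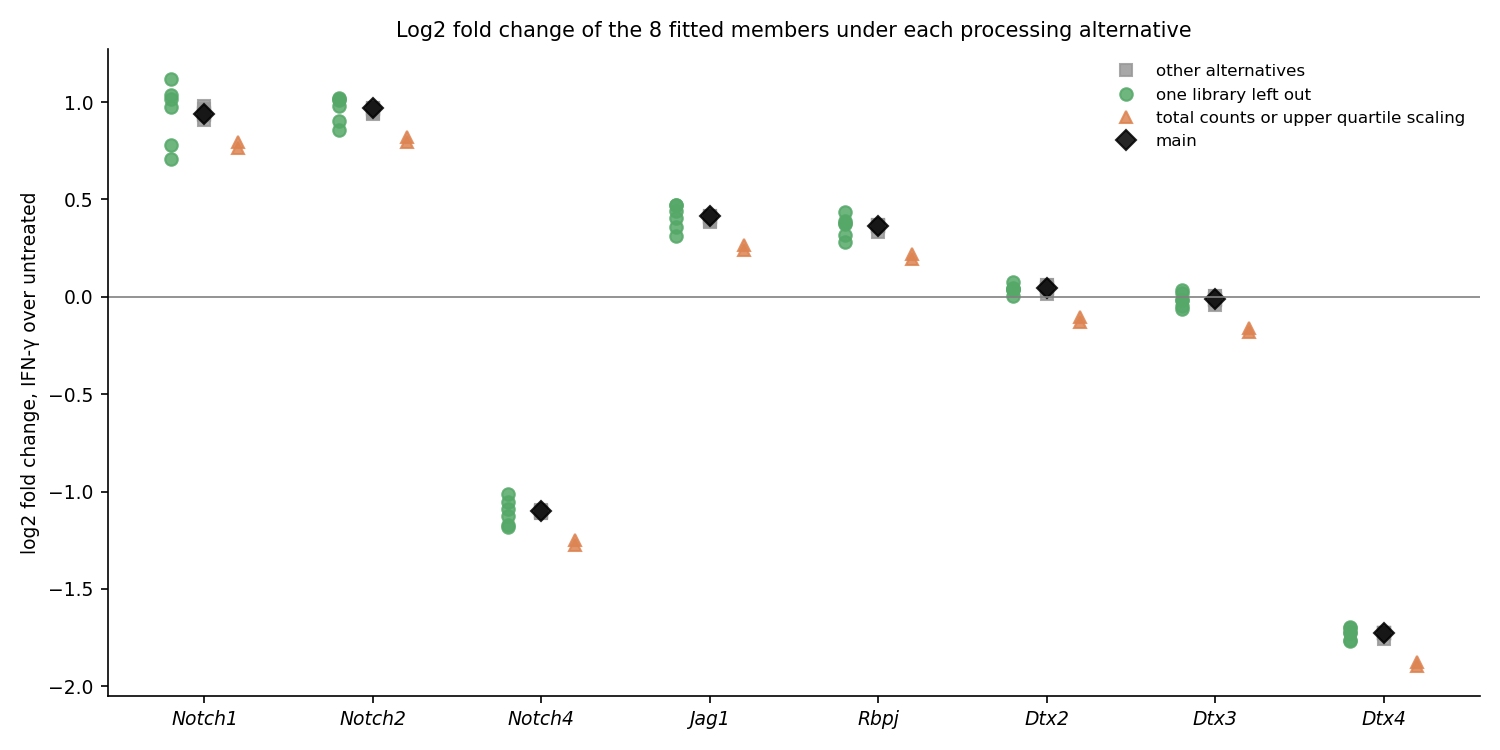
Log2 fold change of IFN-γ over untreated (vertical axis) for the 8 fitted genes in the main analysis (black diamonds) and under each alternative. Dtx4 and Notch4 stayed below 0 and Notch1, Notch2, Jag1 and Rbpj above it throughout, with the lowest values of the latter mostly under total counts or upper quartile scaling (orange) and, for Notch1, without untreated replicate 2 (green).

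The genes around these members in the pathway, 65 other genes sorted by role, moved both ways. These lists were also drawn up with earlier results of these data known, so the counts of calls per list are a description. Of the 55 that were tested, 14 rose and 12 fell (edgeR, adjusted p under 0.05 over all 12968 genes), or 47.3% against 36.4% of all genes, with a median log2 fold change of -0.01, the same as the -0.01 of all genes tested. These calls include Dll1, Neurl1a and Hey1, which passed the filter on low counts only through the group where they were high. With total counts alone 10 rose and 22 fell, and over all genes the split went from 2539 higher and 2176 lower to 1666 and 4520.

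Of the 10 genes for enzymes that cut the receptors, 6 rose and 2 fell, where 19.6% of all genes tested rose and 16.8% fell. Furin, the protease that cleaves the receptor precursor, rose by 0.85 ± 0.08 (log2), from 80.8 ± 7.6 to 146 ± 5.16 CPM (edgeR adjusted p = 6.39e-05). Adam17, a protease able to shed receptors at the surface, rose by 0.58 ± 0.06, from 198 to 297 CPM (adjusted p = 0.000185), while Adam10, the main protease for ligand-bound Notch, was at 217.5 and 249 CPM and was not called (log2 fold change 0.19 ± 0.07). The γ-secretase complex needs a presenilin, nicastrin, an APH1 protein and the small subunit Psenen. Its genes Ncstn, Psen2 and Aph1a rose by 0.31 ± 0.06, 0.23 ± 0.06 and 0.21 ± 0.05, all named, like Aph1b, after their values were seen. The APH1 paralogs went the other way: Aph1c fell by 0.88 ± 0.07, from 37.1 ± 2.04 to 20.15 ± 1.1 CPM (adjusted p = 3.61e-05), and Aph1b had -0.51 ± 0.10. Total counts alone left 3 of the cleavage genes higher, since Ncstn, Psen2 and Aph1a lost their calls (0.14, 0.06 and 0.04). Psen2 also lost its call without any 1 library except untreated replicate 2, and Aph1a without untreated replicate 3, IFN-γ replicate 2 or IFN-γ replicate 3. Exons of Ncstn overlap Copa on the other strand over 10.36% of their bases, with mean counts of 3793.0 and 8467.7.

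Of the 5 genes that put sugars on the receptors, 1 fell and 4 were not called, or 20% called where 36.4% of all genes were. This was Mfng, the Manic fringe glycosyltransferase gene, from 3.66 ± 0.117 to 2.09 ± 0.34 CPM, with a log2 fold change of -0.81 ± 0.14 (edgeR adjusted p = 0.00236). Its paralog Lfng, the most abundant of the 5, was at 118.5 and 116 CPM. Total counts alone gave 3 of the 5 lower and upper quartile scaling 2.

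Of the 10 genes for ligand endocytosis and receptor turnover, 3 fell and 7 were not called, or 30% called, a share no higher than the 36.4% of all genes. Numbl, a relative of the Notch inhibitor Numb, fell by 0.39 ± 0.08 on the log2 scale (edgeR adjusted p = 0.00556), and Mib2, a ubiquitin ligase gene for ligands, by 0.30 ± 0.08 (adjusted p = 0.0236), a call lost without any 1 library except untreated replicate 2. Neurl1a, another ligase gene of this step, named after its values were seen, had 41, 28 and 28 counts untreated and 9, 6 and 7 with IFN-γ, a log2 fold change of -2.14 ± 0.31 (adjusted p = 0.000895). Neurl1a reached the 10 counts of the low-count filter only in the untreated libraries, where it was high, so nothing is read from its call. With total counts alone or upper quartile scaling 5 genes fell, and with the exon length trends removed 1 rose.

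The nuclear partners of RBPJ were split, with 25% of the coactivator and 46.7% of the corepressor genes called, against 36.4% of all genes. Among 8 coactivator genes, Kat2b, a histone acetyltransferase, rose from 27.3 ± 1.89 to 52.5 ± 1.17 CPM (log2 fold change 0.94 ± 0.07, edgeR adjusted p = 1.58e-05) and Maml3, a Mastermind gene, fell from 5.50 ± 1.19 to 2.76 ± 0.331 CPM (-0.999 ± 0.18, adjusted p = 0.00314). Maml1, the most abundant Mastermind gene, was at 17.8 and 17.7 CPM. Without untreated replicate 2, 2 coactivator genes rose and 3 fell, and total counts alone gave 3 lower and upper quartile scaling 2. Of 15 corepressor and RBPJ inhibitor genes, 4 rose and 3 fell. Tle3, a Groucho corepressor, rose by 0.96 ± 0.07 to 45.0 ± 2.13 CPM (adjusted p = 1.755e-05). Rita1, which carries RBPJ out of the nucleus, had a log2 fold change of -0.67 ± 0.10 (adjusted p = 0.00147). With total counts alone or upper quartile scaling 5 of these genes fell.

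Of the 8 HES, HEY and other target genes, 4 were tested, of which 1 rose and 2 fell. That is 75% called, against 36.4% of all genes, and with only 4 genes tested nothing is read from the share. Ccnd1, the cyclin D1 gene, rose by 0.89 ± 0.11 (log2), from 430 ± 58.1 to 795 ± 71.7 CPM (edgeR adjusted p = 0.000436). Exons of Ccnd1 overlap LTO1 on the other strand over 21.71% of their bases, with mean counts of 19217.3 and 772.7. Myc, a growth regulator gene, fell by 0.28 ± 0.05, from 98.7 ± 2.54 to 81.0 ± 0.943 CPM (adjusted p = 0.00296). Hey1, a direct target of RBPJ, was named after its values were seen, with 10, 14 and 14 counts untreated and 2, 6 and 3 with IFN-γ. Its log2 fold change was -1.77 ± 0.43 (adjusted p = 0.0129), and the call was lost without IFN-γ replicate 3 (adjusted p = 0.0533). Hey1 reached the 10 counts of the low-count filter only in the untreated libraries, where it was high, so nothing is read from its call. These targets have many other inputs, and the levels of the Notch proteins or of their cleaved forms were not measured.

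**Figure D4:**
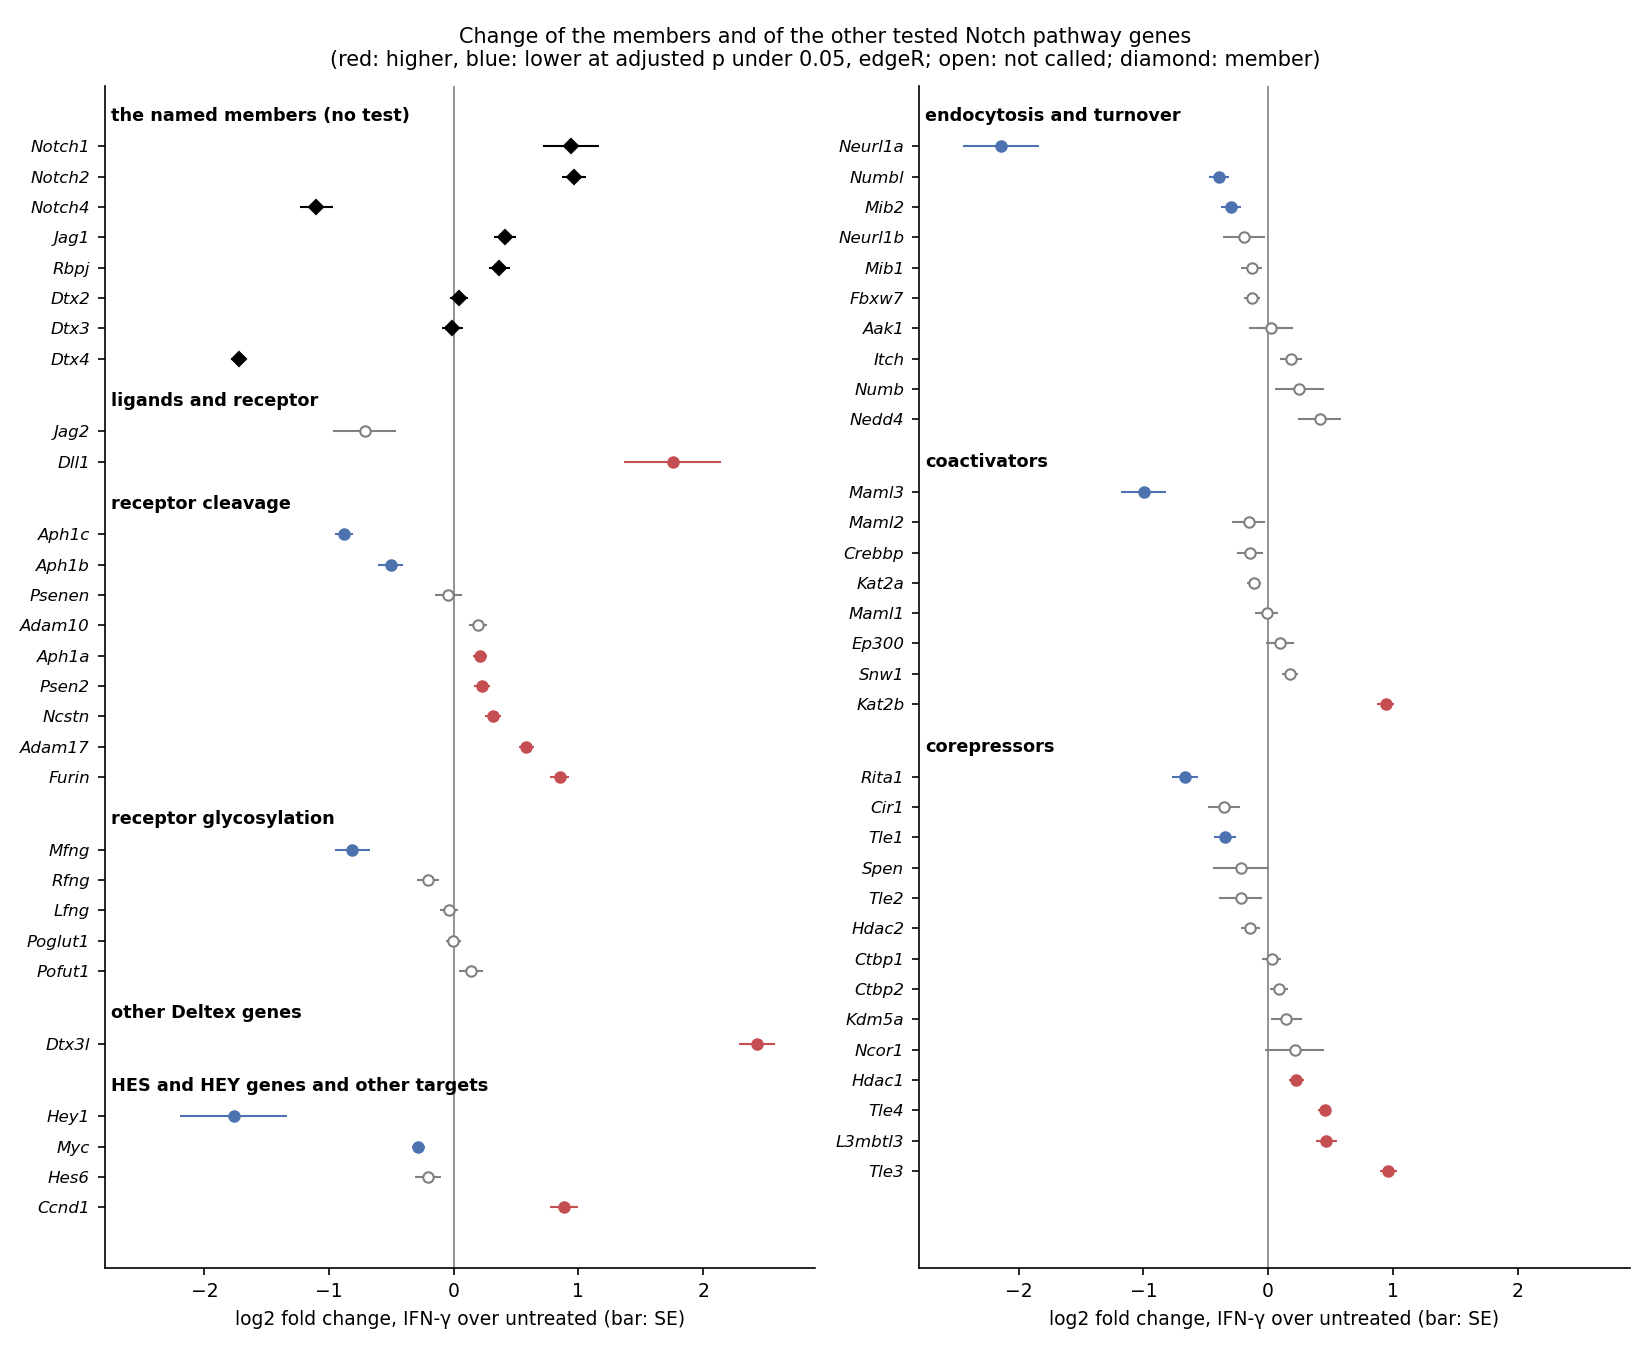
Log2 fold change of IFN-γ over untreated (horizontal axis, bars for the SE) of the 8 fitted members (black diamonds, no test) and the tested genes of the pathway list by role, without those not reported here, red where higher, blue where lower and open where not called. Most cleavage genes lay to the right, with Aph1c and Aph1b to the left, and Dtx3l at 2.43 lay far from Dtx4 at -1.73.

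Dtx4, as the member with the largest change, was set beside all other genes of at least 5 CPM. The 5 genes nearest to it by the root mean square difference of centred log2 CPM over the 6 libraries were Fgd4 (0.075), Nuak1 (0.078), Lhfpl2 (0.087), C130050O18Rik (0.094) and Gpr183 (0.114), where the median of 9610 genes was 0.875. Fgd4, an exchange factor gene for the GTPase CDC42, went from 101 to 31.2 CPM. Gpr183, the receptor gene for the oxysterol that CH25H helps to make, went from 67.9 to 23.4 CPM. That these genes were lower with IFN-γ follows from how they were chosen.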

How the data were processed

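RNA sequencing counts of 3 untreated and 3 IFN-γ libraries were analysed, grouped by title. Cells were grown with 20 ng/mL M-CSF, and libraries were made with a stranded mRNA kit, per the labels' protocols. Alignment used HISAT2 and mm10, per the submitters' processing notes; the counting tool is not given in the sources used here. The authors deposited raw counts, TPM and FPKM per gene. The deposited counts were tested, the deposited TPM (recomputed from counts and lengths to within 7.3e-11) served for levels between genes, and the deposited FPKM were not used. Only 601 of the 35272 symbols shared with RefSeq's GRCm38.p6 table had the same coordinates.

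Genes had to pass edgeR's filterByExpr (at least 10 counts, 15 in total). TMM factors scaled the libraries, and groups were compared by the quasi-likelihood test of edgeR 4.0.16 in R 4.3.3 (two-sided, Benjamini-Hochberg adjustment over 12968 genes). Standard errors are the log2 fold change over the root of F. The fit was also run on simulated counts with the same spread for all genes and no trend on exon length. That run says nothing about the spread between these libraries. No replicate pair agreed within counting noise (chi-square over its degrees of freedom 2.05 to 81.12). The members and lists were chosen with earlier results of these data known. Named beside the members were up to 3 called genes per role with the largest change and at least 1 CPM, or without any the 2 most abundant, both genes of a role of 2, Irf1, Acod1, Cxcl9 and Gbp2 as a label check, and the 5 genes most like the member with the largest change. Acod1, Cxcl9 and Gbp2 were 5.92, 8.23 and 7.04 higher on the log2 scale. Motifs and shared stretches were counted in Python 3.11.15. Counting floors cover counting error only. Some genes of the lists are counted but not reported here by name.

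Marker lists beyond those in the results were neutrophil (summed 69.4 to 92.1 CPM untreated, 117 to 131 with IFN-γ, with Ly6g at or under 3 counts), megakaryocyte (14.1 to 17.4 and 14.7 to 16.1), mast cell (1.5 to 1.87 and 1.13 to 2.0), T cell (0.266 to 0.415 and 1.06 to 1.39, from Lck), stromal (0.203 to 0.593 and 0.451 to 0.955), B cell (0.199 to 0.267 and 0.123 to 0.193) and erythroid (0.0593 to 0.237 and 0.0308 to 0.0966).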

Additional observations from a re-analysis of the deposited data

How the results depend on the processing

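The scaling of the libraries moved the counts most. Upper quartile scaling and total counts alone shifted the median log2 fold change of all genes to -0.16 and -0.18, from -0.01. The pathway list then had 20 and 22 genes lower in place of 12, and all genes 4097 and 4520 lower in place of 2176, while genes higher over all were 1666 under total counts in place of 2539. RLE scaling, DESeq2 1.42.0, limma-voom 3.58.1, the robust fit, both filters on low counts and removal of the exon length trends (lowess, span 0.5) kept every such count within 1.5 times. Leaving out 1 library gave 11 to 16 pathway genes higher and 10 to 16 lower. Whether replicate numbers pair the libraries was unclear. Correlations of deviations were 0.306, 0.144 and -0.07 for the same number, and ran from -0.34 to 0.241 for different numbers. The replicate block gave 15 pathway genes higher and 14 lower, and 2723 and 2327 over all genes; Jag2 was then called lower (adjusted p = 0.0494). Block and length trend together, chosen after seeing the data, gave 18 and 15. Depth limits Hes1, Nrarp and the other genes near 3 counts.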
